A study of Rattus norvegicus with 28 samples.

Results

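The 9 genes described here encode the cAMP and DARPP-32 signalling machinery of striatal projection neurons: Gnal, Gng7, Adcy5, Pde10a, Pde1b, Ppp1r1b, Ppp2r2a, Arpp21 and Rasd2. They were taken by symbol from an RNA sequencing table of 39538 genes, made from striatal tissue of male rats, and all 9 were found. The table holds 28 libraries: 6 from TG rats with a nerve crush (TG crush), 8 from TG rats without one (TG naive), 6 from wild-type rats with a crush (wt crush) and 8 from wild-type rats without one (wt naive). TG rats carry the genotype given as {delta}ETorA, a model of DYT-TOR1A dystonia. In it a human form of the gene for torsinA, an ATPase of the endoplasmic reticulum, is present in addition to the rat gene. The crush was of the right sciatic nerve for 30 s, and all 4 groups are labelled with a time of 12 weeks post injury. The sources used here do not give the age of the rats, the side of the striatum taken or the promoter of the transgene. Asked of the 9 genes was whether their RNA levels depend on genotype, on the crush, or on both together.

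Spiny projection neurons, the main neurons of the striatum, read dopamine and adenosine through receptors that act on adenylyl cyclase. In these cells the olfactory-type G protein carries the stimulating signal from dopamine D1 receptors and adenosine receptors to adenylyl cyclase 5, cAMP activates protein kinase A, and the kinase phosphorylates DARPP-32, which then inhibits protein phosphatase 1. Phosphodiesterases end the signal by breaking down cAMP. In humans, variants of GNAL cause an inherited dystonia and variants of ADCY5 a movement disorder with chorea and dystonia.

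The genes lie on 8 chromosomes of the rat build Rnor_6.0, and the deposited table gives their spans with introns. The G protein genes are Gnal, on chromosome 18 (62805406 to 62946133, + strand), and Gng7, on chromosome 7 (11565740 to 11629519, + strand). Adcy5 lies on chromosome 11 (68695839 to 68842452, - strand), Pde10a on chromosome 1 (52360296 to 52544448, - strand) and Pde1b on chromosome 7 (145117951 to 145147711, + strand). Ppp1r1b lies on chromosome 10 (86303727 to 86312770, + strand), Ppp2r2a on chromosome 15 (43673958 to 43733182, - strand), Arpp21 on chromosome 8 (120323895 to 120492790, - strand) and Rasd2 on chromosome 19 (14653198 to 14663914, + strand). The end of Pde1b overlaps Ppp1r1a, another phosphatase inhibitor gene on the opposite strand with a mean of 123 RPM, and reads of the shared stretch are uncertain because the sources used here do not say whether strand was used in counting.

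Promoter sequences were compared because the levels of the 9 genes were correlated across libraries. RefSeq sequences of the 250 bases before the gene start (build GRCr8) were found for 6 of the 9 genes: Gnal, Gng7, Adcy5, Pde10a, Rasd2 and Arpp21. Ppp1r1b, Pde1b and Ppp2r2a had no entry. Both strands were searched for the cAMP response element half-site (TGACG, or CGTCA on the other strand), the full element (TGACGTCA, which contains the half-site), the TATA box (TATAAA, or TTTATA) and the GC box (GGGCGG, or CCGCCC). The 3 promoters with the most matches are printed 5′ to 3′ with matches in capitals, half-sites in Pde10a and GC boxes in Adcy5 and Rasd2.
Pde10a (chr1:54765669-54765918, - strand): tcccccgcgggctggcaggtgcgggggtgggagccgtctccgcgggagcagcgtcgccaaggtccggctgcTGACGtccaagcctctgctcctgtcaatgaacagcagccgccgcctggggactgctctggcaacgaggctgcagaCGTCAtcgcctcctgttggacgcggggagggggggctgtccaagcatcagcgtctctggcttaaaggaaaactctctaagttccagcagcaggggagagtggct
Adcy5 (chr11:79123344-79123593, - strand): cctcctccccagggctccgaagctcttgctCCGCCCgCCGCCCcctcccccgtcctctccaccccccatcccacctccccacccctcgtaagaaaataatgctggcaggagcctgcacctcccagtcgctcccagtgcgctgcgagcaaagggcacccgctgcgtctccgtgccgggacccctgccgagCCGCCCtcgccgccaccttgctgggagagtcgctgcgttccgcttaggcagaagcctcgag
Rasd2 (chr19:13599778-13600027, + strand): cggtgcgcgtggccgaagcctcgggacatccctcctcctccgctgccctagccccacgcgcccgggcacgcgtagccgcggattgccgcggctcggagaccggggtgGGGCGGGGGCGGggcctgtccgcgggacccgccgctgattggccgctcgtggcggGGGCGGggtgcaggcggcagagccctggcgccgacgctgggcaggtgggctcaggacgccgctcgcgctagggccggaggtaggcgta

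The Pde10a sequence held 2 half-sites, at 179 and 104 bases before the gene start, and it was the only one of the 6 genes with any, against 18.2% of 33469 rat promoters of the same length. The full element occurred in 0 of the 6 genes, against 1.59% of promoters, and the TATA box in 0 of 6, against 12.9%. The GC box occurred in 3 of 6 genes, with 3 matches in Adcy5, 3 in Rasd2 and 1 in a second, downstream Pde10a promoter, against 30.5% of promoters. The counts are of genes with a match in any of their promoters, 2 for Pde10a. The percentages are of single promoters, so the 2 are not like for like. The share of G and C among the printed sequences was 66.0% for Pde10a, 70.0% for Adcy5 and 78.4% for Rasd2, against a median of 51.2% over all promoters. These were printed for their matches, and a GC box consists of G and C, so their shares do not stand for all 6 genes. Among those not printed, the share was 68.4% for the second Pde10a promoter, 60.4% for Gnal, 56.4% for Gng7 and 46.4% for Arpp21. The 6 genes thus had no searched motif in common in this window, and a match is a stretch of letters here, not a tested binding site.

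Levels are given in RPM, reads per 1000000 reads assigned to genes. Because RPM is not corrected for transcript length, levels are compared between groups for 1 gene and not between genes. The libraries held 29151455 to 38407359 assigned reads, and the human TOR1A transcript separated the genotypes, with 102 to 144 RPM in TG libraries and 0 to 0.972 RPM in wt libraries. Spiny neuron markers outside the 9 genes were present in all 28 libraries, with none of them at 0: their sum over 16 genes was 3736 to 7164 RPM in TG crush, 4159 to 6577 RPM in TG naive, 6336 to 7160 RPM in wt crush and 3841 to 7245 RPM in wt naive libraries. A set of 8 libraries stood apart in markers of other cells. Of these, 5 held over 20 RPM of Slc17a7, the vesicular glutamate transporter of cortical neurons (24.0 to 63.3 RPM), and were TG crush library 220, TG naive library 190 and wt naive libraries 197, 199 and 202. The other 3 held over 30000 RPM summed over 10 oligodendrocyte markers (31347 to 38813 RPM) and were TG crush library 223, TG naive library 192 and wt naive library 201. The remaining 20 libraries, among them all 6 of wt crush, held 2.11 to 10.6 RPM of Slc17a7 and 17740 to 25239 RPM of the oligodendrocyte markers. These limits were set after seeing the data, and each comparison is also given without the 8 libraries. All 8 were among the 9 libraries with the lowest mean of the 9 genes, and none was from wt crush. Leaving them out takes low values from the other groups only. Smaller differences from wt crush then follow from the choice of libraries and are not a test. Other changes and counts without the 8 libraries are not tests either, since that choice took out low values of these same genes.

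Gnal encodes the alpha subunit of the olfactory-type G protein, which couples D1 dopamine receptors and adenosine receptors to adenylyl cyclase in the striatum. The lowest, median and highest libraries had 319, 518 and 592 RPM in TG crush and 413, 517 and 569 RPM in TG naive rats. Wt crush libraries had 515, 598 and 631 RPM and wt naive libraries 340.3, 479 and 639 RPM. The lowest TG crush library was 223 and the lowest wt naive library was 201, while 5 of the 6 wt crush libraries lay within 592 to 631 RPM and the remaining one, library 203, at 515 RPM. The groups overlapped in every comparison. The mean was 592 ± 41.0 RPM in wt crush (SD, n = 6) and 481 ± 107 RPM in wt naive rats (SD, n = 8), a log2 change of 0.33 (SE 0.13, 95% interval 0.07 to 0.59, adjusted p = 0.166) in limma's test with Benjamini-Hochberg adjustment over 18222 genes, which did not pass the threshold of 0.05.

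Gng7 encodes the gamma subunit that joins this G protein and that, in mice, is needed for its assembly in the striatum. Gng7 was at 1373, 1819 and 2191 RPM in TG crush rats and at 1366, 1910.1 and 2186 RPM in TG naive rats, each time for the lowest, median and highest library. Levels of 1763, 1929 and 2299 RPM were found in wt crush rats and of 1146, 1809.9 and 2299.8 RPM in wt naive rats. Library 199 of wt naive was lowest and library 198 of the same group highest of all 28, so the wt naive group spanned the others. Among TG crush libraries the lowest was 219, not 223, which was lowest for the other 8 genes in that group. Gng7 had the smallest wt crush against wt naive change of the 9 genes, 0.20 (SE 0.14, 95% interval -0.08 to 0.48, adjusted p = 0.395) in limma's test.

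Adcy5 encodes the main adenylyl cyclase of the striatum, which makes the cAMP of the pathway. Its level was 843, 1181 and 1423 RPM in TG crush rats (lowest, median and highest library) and 921, 1311 and 1427 RPM in TG naive rats. The same values were 1304, 1392 and 1434 RPM in wt crush rats and 764, 1202 and 1492 RPM in wt naive rats. The wt crush libraries lay closest together, with a coefficient of variation of 3.53%, the lowest of any gene and group here, and 4 of the 6 TG crush libraries lay below the lowest of them. The wt naive group ran both above and below wt crush, so the groups overlapped. The mean was 1182 ± 208 RPM in TG crush and 1383 ± 48.8 RPM in wt crush rats (SD, n = 6 each), a log2 change of -0.25 (SE 0.15, 95% interval -0.55 to 0.06, adjusted p = 0.664) in limma's test.

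Pde10a encodes a phosphodiesterase of cAMP and cGMP that is concentrated in spiny neurons. The lowest, median and highest libraries had 225, 453 and 617 RPM in TG crush and 300.1, 402 and 634 RPM in TG naive rats. Wt crush libraries had 487, 599 and 719 RPM and wt naive libraries 217, 465 and 662 RPM. Library 201 of wt naive was the lowest of all 28 and library 206 of wt crush the highest, 3.30-fold apart, the widest range of the 9 genes. The lowest libraries of TG crush, TG naive and wt naive, 223, 192 and 201, were the 3 with high oligodendrocyte markers. Pde10a had the largest changes of the 9 genes in both comparisons that include wt crush: 0.56 (SE 0.24, 95% interval 0.06 to 1.05, adjusted p = 0.202) for wt crush against wt naive, and -0.47 (SE 0.26, 95% interval -1.01 to 0.06, adjusted p = 0.643) for TG crush against wt crush. Neither passed limma's test.

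Pde1b encodes a phosphodiesterase that calcium and calmodulin activate and that breaks down cGMP and cAMP. Pde1b was at 797, 1206 and 1526 RPM in TG crush rats and at 806, 1241 and 1490.0 RPM in TG naive rats, each time for the lowest, median and highest library. Levels of 1320.2, 1486 and 1587 RPM were found in wt crush rats and of 733, 1164 and 1539.9 RPM in wt naive rats. One wt crush library lay above the highest wt naive library and 4 of 6 TG crush libraries lay below the lowest wt crush library, and the groups overlapped. Wt naive libraries 199 and 201 were the lowest of all 28. The mean was 1476 ± 90.5 RPM in wt crush (SD, n = 6) and 1137 ± 316 RPM in wt naive rats (SD, n = 8), a log2 change of 0.43 (SE 0.16, 95% interval 0.09 to 0.76, adjusted p = 0.165) in limma's test.

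**Figure D1:**
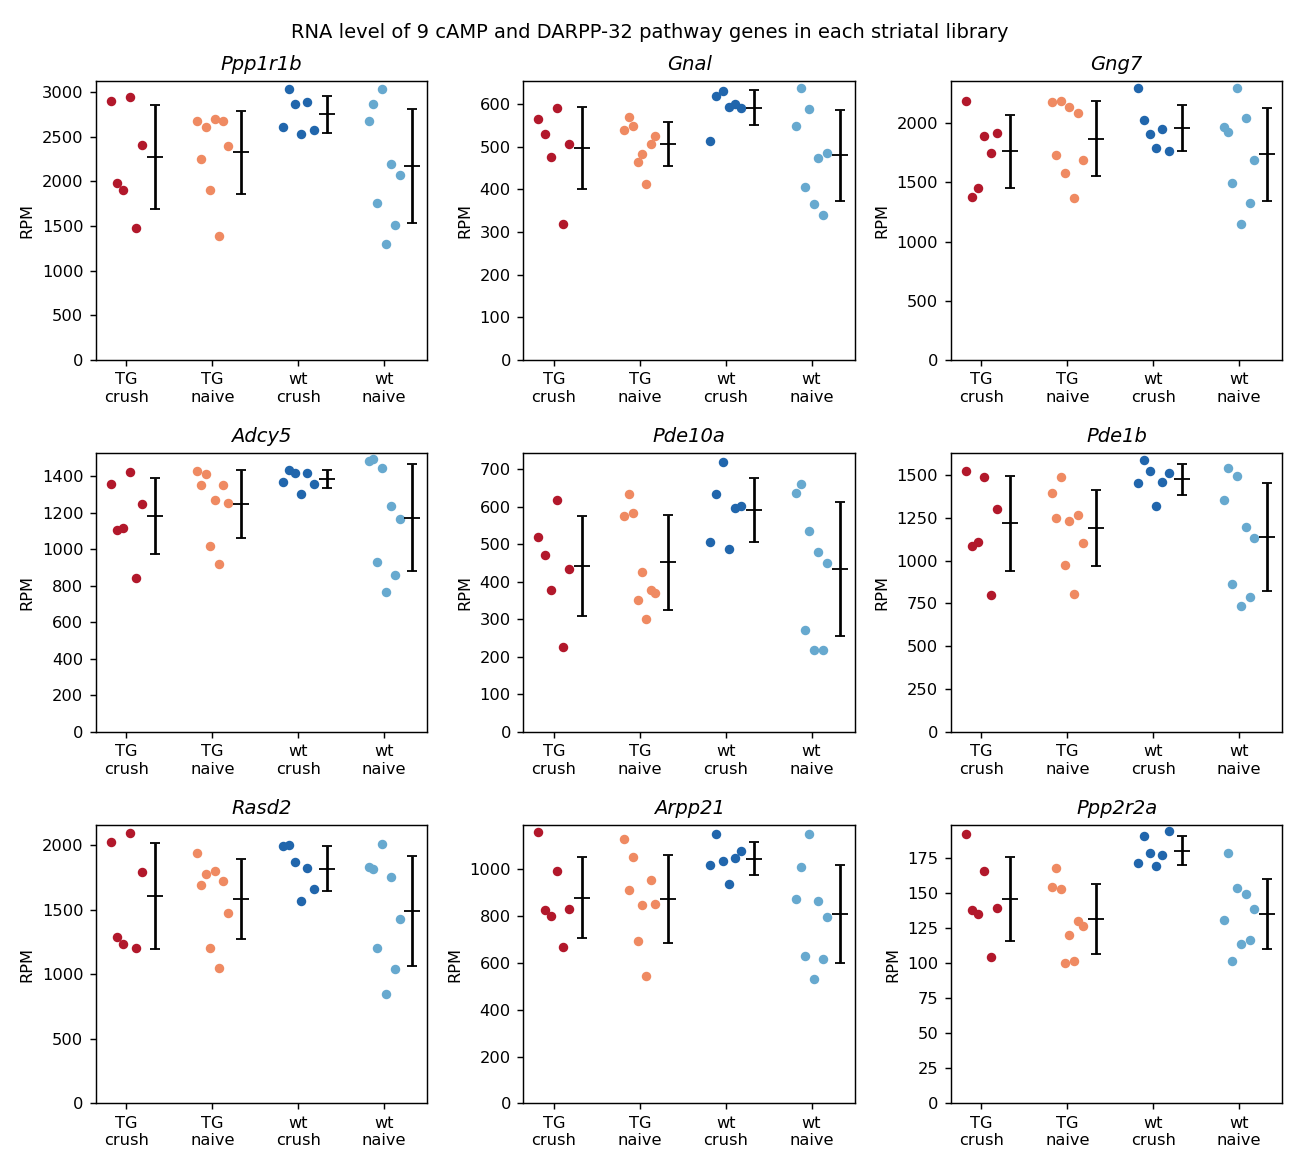
RNA level (RPM) of each gene in each library, with points for libraries and bars for the group mean and SD, in TG crush (6), TG naive (8), wt crush (6) and wt naive (8) rats. The wt crush points sit closer together than those of the other groups and lie in the upper part of most panels. For Gng7 and Rasd2, points of other groups lie above most of them. The wt naive points spread over most of the range.

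Ppp1r1b encodes DARPP-32, the protein phosphatase 1 inhibitor that protein kinase A switches on. Its level was 1482, 2197 and 2948 RPM in TG crush rats (lowest, median and highest library) and 1383, 2504 and 2693 RPM in TG naive rats. The same values were 2531, 2739 and 3037 RPM in wt crush rats and 1299.9, 2131 and 3029 RPM in wt naive rats. Library 199 of wt naive was the lowest of all 28 and library 205 of wt crush the highest, and the groups overlapped in every comparison. The mean was 2323 ± 468 RPM in TG naive and 2175 ± 639 RPM in wt naive rats (SD, n = 8 each), and limma's log2 change between them was 0.12 (SE 0.17, 95% interval -0.22 to 0.46, adjusted p = 0.999).

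Ppp2r2a encodes a regulatory B subunit of protein phosphatase 2A, an enzyme that removes phosphate from DARPP-32. The lowest, median and highest libraries had 104, 138 and 192 RPM in TG crush and 100.1, 128 and 167 RPM in TG naive rats. Wt crush libraries had 169, 178 and 194 RPM and wt naive libraries 101, 135 and 178 RPM. The wt crush libraries stood further from the others than for any of the other 8 genes: 5 of 6 TG crush libraries lay below the lowest wt crush library, and 3 of 6 wt crush libraries lay above the highest wt naive library. One TG crush library, 214, reached the wt crush range, so the groups overlapped. The mean was 180.1 ± 10.2 RPM in wt crush (SD, n = 6) and 135 ± 25.05 RPM in wt naive rats (SD, n = 8), a log2 change of 0.43 (SE 0.13, 95% interval 0.17 to 0.69, adjusted p = 0.115), the lowest adjusted p of any of the 9 genes in any comparison. The mean of 146 ± 30.0 RPM in TG crush rats (SD, n = 6) gave a log2 change against wt crush of -0.33 (SE 0.13, 95% interval -0.61 to -0.05, adjusted p = 0.606). Neither passed limma's test.

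Arpp21 encodes a cAMP-regulated phosphoprotein of spiny neurons, and its span holds the microRNA gene Mir128-2, which had 0 RPM in every library. That 0 is not a measure of the microRNA. The libraries were made with an mRNA kit, and how reads on overlapping spans were counted is not given. Arpp21 was at 666, 827 and 1159 RPM in TG crush rats and at 542, 881 and 1130.2 RPM in TG naive rats, each time for the lowest, median and highest library. Levels of 937, 1041 and 1151 RPM were found in wt crush rats and of 529, 829.9 and 1149 RPM in wt naive rats. The single highest library of all 28 was in TG crush, library 214, and the lowest was wt naive library 199. The mean was 1044 ± 70.3 RPM in wt crush (SD, n = 6) and 808 ± 211 RPM in wt naive rats (SD, n = 8), with limma's log2 change at 0.41 (SE 0.16, 95% interval 0.09 to 0.73, adjusted p = 0.162).

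Rasd2 encodes Rhes, a small GTPase enriched in the striatum that dampens cAMP signalling by G protein-coupled receptors. Its level was 1207, 1542 and 2098 RPM in TG crush rats (lowest, median and highest library) and 1052, 1709 and 1940.0 RPM in TG naive rats. The same values were 1569.6, 1848 and 2006 RPM in wt crush rats and 849, 1591 and 2009 RPM in wt naive rats. The highest library was in TG crush, library 222, and 2 TG crush libraries lay above the highest wt crush library while 3 lay below the lowest. The mean was 1609 ± 412 RPM in TG crush and 1821 ± 177 RPM in wt crush rats (SD, n = 6 each), with limma's log2 change at -0.21 (SE 0.19, 95% interval -0.60 to 0.17, adjusted p = 0.764).

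Between wt crush and wt naive rats, all 9 genes had a higher mean in wt crush rats, and 0 of the 9 passed limma's test, against 0.159% of all 18222 tested genes (29 genes). The log2 changes ran from 0.20 for Gng7 to 0.56 for Pde10a, with a median of 0.39 over the 9 genes and -0.03 over all genes. At an unadjusted p under 0.05 there were 6 of the 9 genes, against 20.8% of all genes, and limma-voom on the whole reads also called 0. The 9 genes varied together across libraries, with a median r of 0.87 between pairs, so the 6 are not independent results. Fewer spiny neurons in a piece of tissue and less of the RNA per cell cannot be told apart in bulk samples. Cell type markers moved with this difference. The 16 spiny neuron markers outside the 9 genes were all higher in wt crush rats, with a median log2 change of 0.36 and 0 calls, and their summed level was 6336 to 7160 RPM in wt crush and 3841 to 7245 RPM in wt naive libraries. Markers of other cells differed in the other direction: 10 of 10 astrocyte, 9 of 10 oligodendrocyte and 9 of 10 microglia markers had a lower mean in wt crush rats, with 0 calls. The summed oligodendrocyte markers were 18693 to 21796 RPM in wt crush and 17740 to 38813 RPM in wt naive libraries, and the summed astrocyte markers 3439 to 3647 RPM in wt crush and 3354 to 4906 RPM in wt naive libraries. Slc17a7 was 2.11 to 5.48 RPM in wt crush and 3.32 to 55.2 RPM in wt naive libraries, and of the 10 cortical markers Neurod1 was listed at 0 in every library. Of the 8 wt naive libraries, 4 were among those that stood apart, against 0 of 6 in wt crush. Without the 8 libraries the median change of the 9 genes was 0.04, from -0.08 for Gng7 to 0.24 for Ppp2r2a, again with 0 calls and with 1 of the 9 at an unadjusted p under 0.05, against 7.33% of all genes. Ppp2r2a then averaged 180.1 ± 10.2 RPM in wt crush (SD, n = 6) and 153 ± 19.6 RPM in wt naive rats (SD, n = 4), and Pde10a 590.5 ± 85.3 RPM in wt crush and 579 ± 85.4 RPM in wt naive rats. With the average of those 16 spiny neuron markers as a covariate the median was -0.05. These markers followed the 9 genes across libraries (r of 0.72 to 0.97) and differed between these groups in the same direction. A median near 0 was therefore largely built into that fit, which cannot separate cell number from RNA per cell. The part of tissue composition in the difference was not tested.

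Between TG crush and wt crush rats, all 9 genes had a lower mean in TG crush rats, and 0 of 9 passed, against 0.00549% of all genes (1 gene). The log2 changes ran from -0.47 for Pde10a to -0.16 for Gng7, with a median of -0.27 over the 9 genes and 0.00 over all genes. At an unadjusted p under 0.05 there was 1 of the 9 in limma's fit, Ppp2r2a (unadjusted p = 0.0212, adjusted p = 0.606), against 8.06% of all genes, and limma-voom called 0. Fitted to these 12 libraries alone, limma gave the same log2 changes and 6 of the 9 at an unadjusted p under 0.05, Gnal, Adcy5, Pde10a, Pde1b, Arpp21 and Ppp2r2a, against 9.41% of all genes, again with 0 calls and a lowest adjusted p of 0.46. That fit drew its spread from these 12 libraries only, without the naive ones. As the 9 genes varied together across libraries, the 6 are not independent results. The 16 spiny neuron markers were all lower in mean in TG crush rats, with a median log2 change of -0.22 and 0 calls, while 9 of 10 astrocyte and 7 of 10 oligodendrocyte markers were higher in mean, also with 0 calls. Slc17a7 was 3.47 to 63.3 RPM in TG crush and 2.11 to 5.48 RPM in wt crush libraries, and 2 of the 6 TG crush libraries were among the 8 that stood apart. Without those libraries the median was -0.12 and the changes ran from -0.21 to -0.03, with 0 calls. With the same covariate of spiny neuron markers, and the same limit, the median was 0.00. The part of tissue composition in this difference was not tested either. This comparison shares the wt crush libraries with the one above.

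Between TG naive and wt naive rats, 8 of the 9 genes had a higher mean log2 level in TG naive rats by 0.09 to 0.13, and Ppp2r2a differed by -0.04. Of the 9, 0 passed limma's test, against 0.0329% of all genes (6 genes), with 0 of 9 at an unadjusted p under 0.05, against 4.98% of all genes, and 0 by limma-voom. The intervals were wide enough to leave changes of either sign: for Gnal, with the narrowest interval, it ran from -0.14 to 0.34. The 8 libraries that stood apart took 2 of 8 TG naive and 4 of 8 wt naive libraries, and without them the median log2 change was -0.08, where it was 0.12 with all libraries. More wt naive than TG naive libraries with low values were left out, so this change of sign is not a test. Of the 16 spiny neuron markers outside the 9 genes, 15 were also higher in TG naive rats, with a median log2 change of 0.12 and 0 calls. Averaged over naive and crush rats, the TG minus wt change was negative for all 9 genes, with a median of -0.09 and 0 of 9 called, against 0.0384% of all genes (7 genes). The 1 gene at an unadjusted p under 0.05 was Ppp2r2a, at -0.18 (SE 0.09, unadjusted p = 0.0477, adjusted p = 0.956), against 5.09% of all genes, and limma-voom called 0. Without the 8 libraries the median of this average was -0.10 with 0 calls, and 2 of the 9 genes were at an unadjusted p under 0.05, Pde10a (-0.23) and Ppp2r2a (-0.15), against 4.71% of all genes. Those libraries were chosen after seeing the data and were among the lowest for these genes, so that count is not a test.

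Between TG crush and TG naive rats, 562 genes passed the test, 3.08% of all tested, and 0 of the 9 did. Their log2 changes ran from -0.09 for Adcy5 to 0.14 for Ppp2r2a with a median of -0.04, against -0.01 over all genes, and 0 of 9 had an unadjusted p under 0.05, against 19.3% of all genes. Limma-voom called 0 of the 9 as well. Ppp2r2a averaged 146 ± 30.0 RPM in TG crush (SD, n = 6) and 132 ± 24.8 RPM in TG naive rats (SD, n = 8), and Adcy5 averaged 1182 ± 208 RPM in TG crush and 1251 ± 186 RPM in TG naive rats. The interval of the Adcy5 change was -0.37 to 0.20. Without the 8 libraries the median was 0.03, with 0 calls.

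The interaction, the crush change in TG rats minus the crush change in wt rats, was negative for all 9 genes, from -0.61 for Pde10a to -0.28 for Gng7, with a median of -0.38 over the 9 genes and 0.01 over all genes. Of the 9, 0 passed, against 0.00549% of all genes (1 gene), and limma-voom called 0. At an unadjusted p under 0.05 there was 1 of 9, Gnal (-0.38, SE 0.18, unadjusted p = 0.0444, adjusted p = 0.658), against 7.49% of all genes. The 16 spiny neuron markers outside the 9 genes all had a negative interaction too, with a median of -0.33 and 0 calls. In limma's fit 3 of these 16 were at an unadjusted p under 0.05. Without the 8 libraries the interaction of the 9 genes had a median of -0.04. A difference between the genotypes in the effect of crush was not shown for any of the 9 genes.

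**Figure D2:**
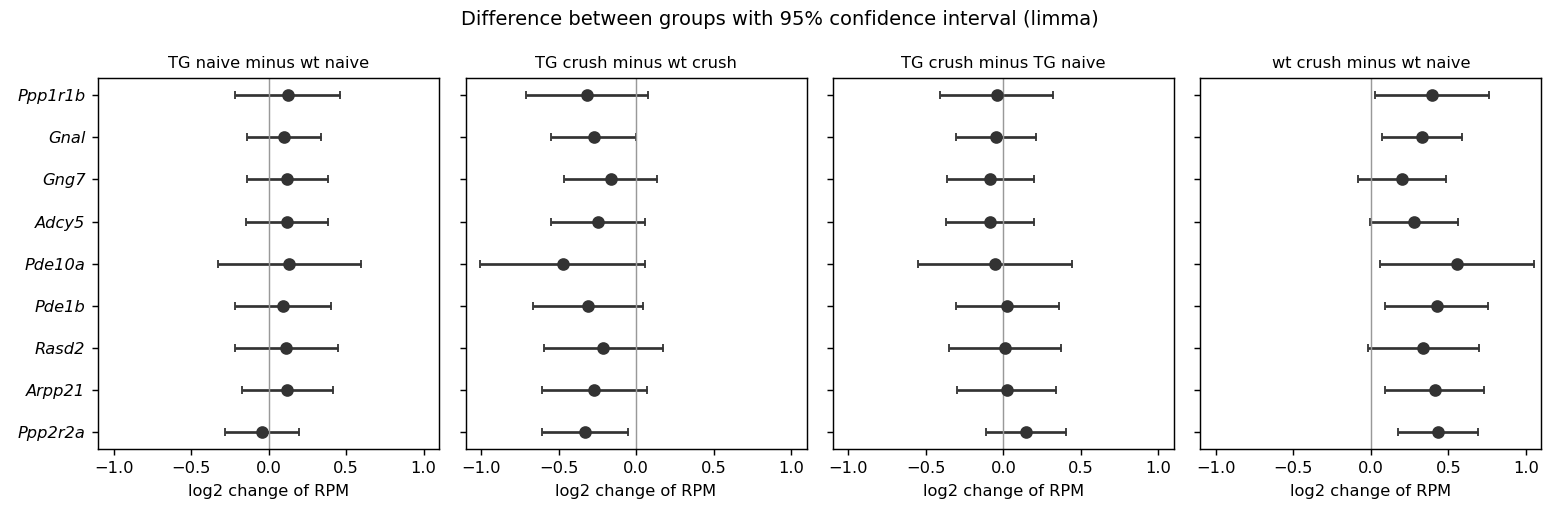
Difference in log2 RPM with its 95% confidence interval from limma for each gene (rows) in 4 comparisons, TG naive minus wt naive, TG crush minus wt crush, TG crush minus TG naive and wt crush minus wt naive. The points of wt crush minus wt naive lie between 0.20 and 0.56 and those of TG crush minus wt crush between -0.47 and -0.16, while no gene passed the adjusted threshold in any panel.

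In the order of group means, wt crush was first for 9 of 9 genes and wt naive last for 8 of 9, with TG naive last for Ppp2r2a. TG naive was second for Ppp1r1b, Gnal, Gng7, Adcy5 and Pde10a, and TG crush for the other 4. In the 4 pairs of groups that were compared, none of the 9 genes passed limma's adjusted test, so these pairs were not shown to differ beyond the spread between libraries. TG naive with wt crush and TG crush with wt naive were not compared directly. The spread itself differed between groups. The coefficient of variation was 17.5 to 30.2% in TG crush, 10.1 to 27.9% in TG naive, 3.53 to 14.4% in wt crush and 18.5 to 41.4% in wt naive rats. The SD of the log2 level was lowest in wt crush for 9 of 9 genes, as it was for 60.5% of all tested genes, and highest in wt naive for 8 of 9, against 28.7% of all genes. The median SD of the 9 genes was 0.32 in TG crush, 0.29 in TG naive, 0.10 in wt crush and 0.38 in wt naive rats, against 0.18, 0.15, 0.11 and 0.16 over all genes in the same groups. The difference in spread was not tested.

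The 9 genes had high and low values together from library to library. Over the 28 libraries, Pearson's r between pairs of them was 0.57 to 0.97 with a median of 0.87 over 36 pairs, and 0.56 to 0.98 with the group means removed. The pair most alike was Adcy5 with Pde1b (r = 0.97) and the pair least alike Gng7 with Ppp2r2a (r = 0.57). These are descriptions over libraries that share depth scaling and tissue make-up, given with no p. The libraries in which the 9 genes were lowest on average were, from the lowest, wt naive 199 and 201, TG naive 192, TG crush 223, wt naive 197, TG naive 190, TG crush 220 and 219 and wt naive 202. Of these 9 libraries, 8 were the ones that stood apart in Slc17a7 or in oligodendrocyte markers. In TG crush 223 the mitochondrial share of reads was 18.5%, the highest of the 28.

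**Figure D3:**
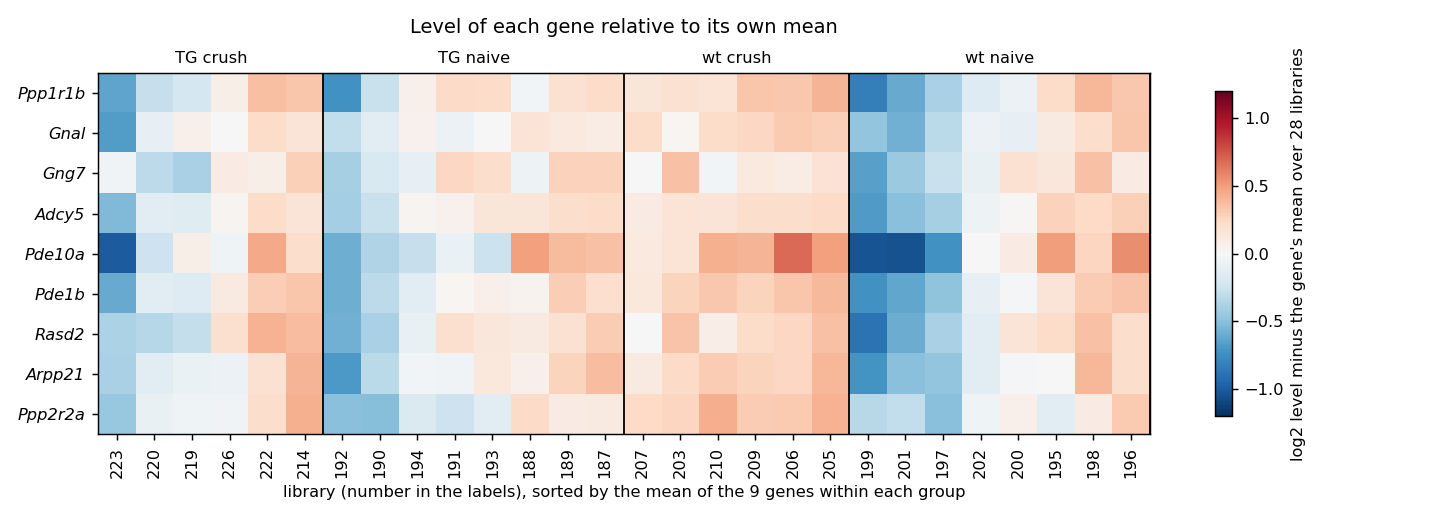
Log2 level of each gene (rows) in each library (columns), minus the mean of that gene over the 28 libraries, with libraries ordered within each group by the mean of the 9 genes. Columns such as wt naive 199 and 201, TG naive 192 and TG crush 223 are low in nearly all rows, and all 6 wt crush columns are at or above the mean in nearly all rows.

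Each of the 9 genes was set against the average log2 level of the 16 spiny markers that are not among them. Pearson's r over 28 libraries was 0.97 for Pde1b, Gnal and Adcy5, 0.95 for Ppp1r1b, 0.94 for Pde10a and Arpp21, 0.89 for Rasd2, 0.87 for Ppp2r2a and 0.72 for Gng7. In two-sided permutation tests with 100000 resamples, the adjusted p was 1.12e-05 to 2e-05 for r over 18 relations, these 9 and 9 with summed cortical markers, near the smallest the resamples can give, and at most 0.00072 for Spearman's rho, which was 0.61 to 0.94. The 9 genes and the 16 markers are both genes of spiny neurons, measured in the same libraries. A positive relation was therefore likely before any test, and these p-values are descriptive only. Without the 2 libraries farthest from the median of the markers r was 0.71 to 0.96, and with group means removed 0.70 to 0.97. Within wt crush alone, where the markers hardly varied, r was -0.41 to 0.88 with a median of 0.55 over 6 libraries. Within the other groups the median r was 0.96 in TG crush, 0.93 in TG naive and 0.98 in wt naive.

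The 9 genes were also set against markers of cortical neurons and of oligodendrocytes. With the sum of 10 cortical neuron markers, Pearson's r was 0.72 to 0.92 and Spearman's rho 0.62 to 0.89 over 28 libraries, with adjusted permutation p-values of at most 2e-05 for r and 0.000625 for rho, and r was 0.67 to 0.89 without the 2 farthest libraries. Nrgn, which spiny neurons also express, made up 90.9 to 99.7% of that sum, and without Nrgn the sign was the opposite for all 9 genes, with rho at -0.81 to -0.65. The positive relation is thus one with a sum that is mostly Nrgn, and not with the other 9 cortical markers. Without Nrgn the sum was 36.1 to 92.3 RPM in the 5 libraries with over 20 RPM of Slc17a7 and 4.50 to 17.6 RPM in the other 23, so the libraries formed separate clusters and no pooled r is given. Within the 23 libraries r was -0.72 to -0.50 and rho -0.75 to -0.44, with adjusted two-sided permutation p-values of 0.00072 to 0.0236 for r and 0.00126 to 0.0407 for rho, and r was -0.69 to -0.39 without the 2 farthest. With the sum of the oligodendrocyte markers rho was -0.63 to -0.40 over 28 libraries. Within the 25 libraries of at most 30000 RPM r was -0.54 to -0.18 and rho -0.51 to -0.24. There the adjusted p of r was 0.0105 to 0.383 and passed 0.05 for 3 of the 9 genes, that of rho was 0.021 to 0.237 and passed for 7, and r was -0.42 to -0.06 without the 2 farthest. These 18 relations within clusters were chosen after seeing the data and adjusted together. The libraries were split on the oligodendrocyte sum itself and on Slc17a7, which is part of the cortical sum. RPM also has a fixed total in each library, so a rise in some genes lowers others. The p-values within clusters and those over 28 libraries are therefore descriptive only.

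**Figure D4:**
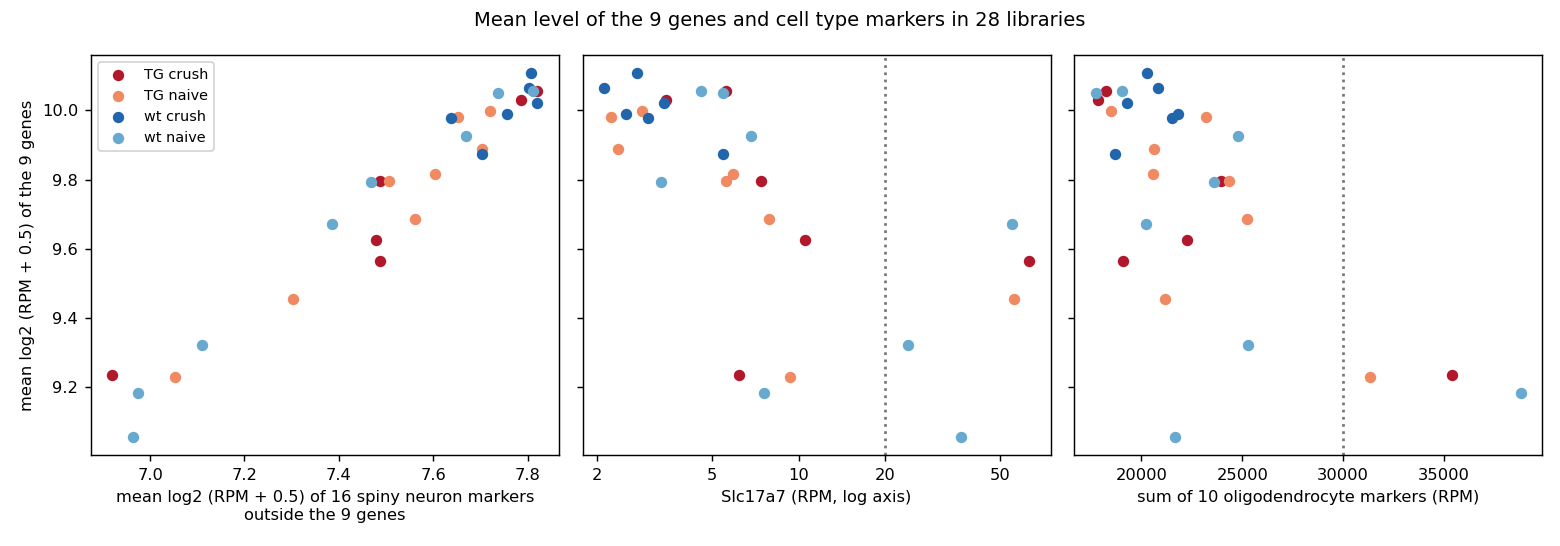
Mean log2 (RPM + 0.5) of the 9 genes in each library against the same mean over 16 spiny neuron markers, the RPM of Slc17a7 (log axis) and the summed RPM of 10 oligodendrocyte markers, with dotted lines at 20 and 30000 RPM. The points rise along the spiny neuron markers, and the 8 libraries to the right of a dotted line are among the 9 lowest.

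Among 18213 other genes, those whose level was most like the mean of the 9 were Scn4b, Hpca, Smpd3, Rgs9 and Rasgrp2, each with r = 0.98 over 28 libraries. Scn4b is a sodium channel subunit, Hpca the calcium sensor hippocalcin, Smpd3 a neutral sphingomyelinase, Rgs9 a regulator of G protein signalling enriched in the striatum, and Rasgrp2 a nucleotide exchange factor of Rap1. By single gene, the most alike was Hpca for Ppp1r1b (r = 0.99), Lmtk2 for Gnal (0.98), Shank3 for Gng7 (0.95), Smpd3 for Adcy5 (0.98), Atp2b1 for Pde10a (0.97), Scn4b for Pde1b (0.98), Pik3cd for Rasd2 (0.97), Asic4 for Arpp21 (0.97) and Deptor for Ppp2r2a (0.95).

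Of 132 other genes of the pathway, 131 were tested. They comprised receptors, G protein subunits, adenylyl cyclases, phosphodiesterases, subunits and anchors of protein kinase A, the kinases and phosphatases around DARPP-32, and effectors of cAMP. In TG crush against TG naive rats 1 of the 131 was lower and 0 higher, 0.763%, against the 3.08% of all genes. The called gene was Gng11, a gamma subunit outside the olfactory-type G protein, with 4.13 ± 0.70 RPM in TG crush (SD, n = 6) and 5.45 ± 0.27 RPM in TG naive rats (SD, n = 8), a log2 change of -0.37 (SE 0.08, adjusted p = 0.0121). In the same comparison 3 of 9 endothelial markers were lower, Cd93, Pecam1 and Tek, and their part in the Gng11 difference was not tested. In the other 5 comparisons 0 of the 131 were called by limma. Gng11 was lower in mean after the crush in wt rats too, though not called. It had 3.75 ± 0.41 RPM in wt crush (SD, n = 6) and 4.70 ± 0.56 RPM in wt naive rats (SD, n = 8). At an unadjusted p under 0.05 there were 3 of the 131 for TG naive against wt naive (2.29%, against 4.98% of all genes), 11 for TG crush against wt crush (8.40%, against 8.06%) and 2 for TG against wt averaged (1.53%, against 5.09%). The counts were 15 for TG crush against TG naive (11.5%, against 19.3%), 44 for wt crush against wt naive (33.6%, against 20.8%) and 7 for the interaction (5.34%, against 7.49%). In wt crush against wt naive rats the median log2 change of these 131 genes was 0.04, where it was 0.39 for the 9 genes and 0.29 for the 14 tested receptors.

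Read against the mean of the 9 genes, the other pathway genes differed from list to list. Of the 14 tested receptors 7 had an r of at least 0.8, among them Drd2 (0.96), Drd1 (0.95) and Gpr6 (0.95), Adora2a (0.94) and Chrm4 (0.94), and Cnr1 (0.93), receptors that spiny neurons express. Of the 22 other G protein subunits and partners 2 did, Gnb5 (0.91) and Gnb2 (0.87), while Gnas, the stimulating alpha subunit of most other tissues, had r = -0.85. Of the 9 other cyclases Adcy3 (0.93) and Adcy1 (0.92) did, and Adcy2 had r = -0.91. Of the 16 other phosphodiesterases Pde2a (0.91) and Pde7b (0.89) did. Among the 37 kinases and phosphatases 8 did, led by Ptpn5 (0.98), the striatum-enriched tyrosine phosphatase, and Ppp1ca (0.96), the catalytic subunit that DARPP-32 inhibits. The other B subunits of protein phosphatase 2A from the family of Ppp2r2a had r = -0.05 for Ppp2r2b, 0.75 for Ppp2r2c and -0.46 for Ppp2r2d. Among all other tested genes 2.49% had an r of at least 0.8. These genes were named after their values were seen, and the coefficients are descriptions over 28 libraries with no p.

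**Figure D5:**
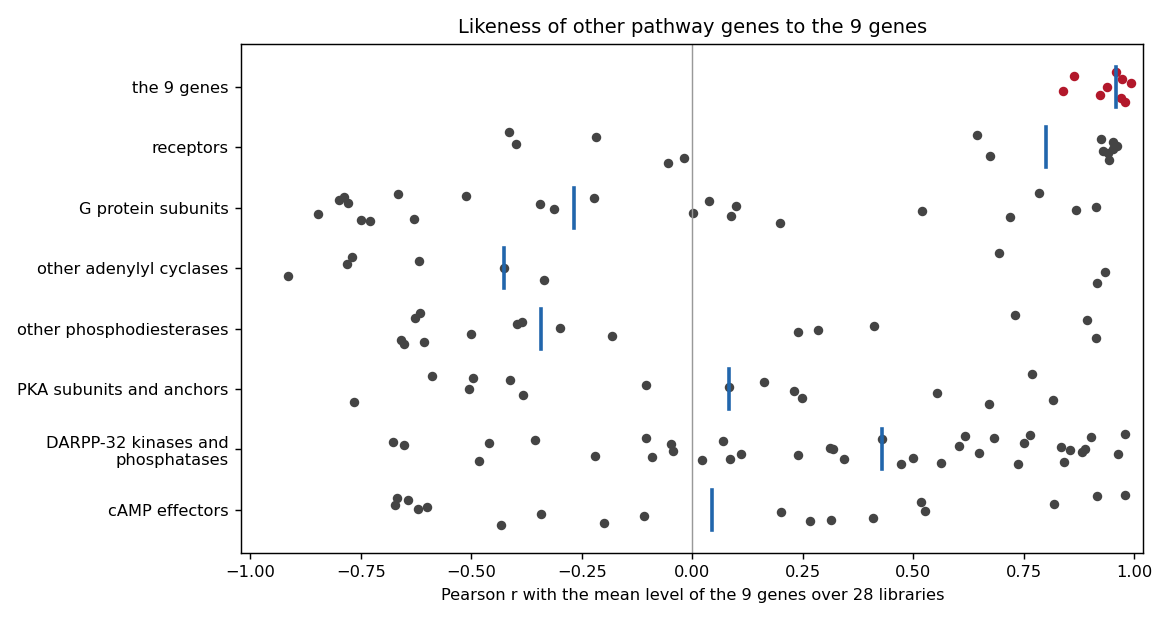
Pearson's r over 28 libraries between each gene and the mean of the 9 genes, by list, with a blue line at the median of each list. The 9 genes themselves (red, 0.84 to 0.99, part of the mean they are set against) are high by construction, the receptors reach a median of 0.80, and the other lists scatter on both sides of 0.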

How the data were processed

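The 28 striatal libraries were made with a stranded mRNA kit and sequenced single-end at 75 nt, per the labels' protocols, over 2 runs that the sources used here do not assign to libraries. STAR 2.6.1a, featureCounts of Subread 1.6.3, DESeq2 1.22.2 and the build Rnor_6.0 are named in the submitters' processing notes. The deposited table holds RPKM values per gene span with introns, and RPKM times length in kilobases gave the RPM used here. Whole read counts could be computed from these deposited values: 100% of values were whole multiples of 1 read within a tolerance of 0.02. A count of 3 reads corresponds to at most 0.103 RPM, a limit that covers counting error only.

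Values of log2 (RPM + 0.5) were computed from the deposited RPKM, and 1 model of the 4 groups was fitted with limma 3.58.1 in R 4.3.3 to all libraries, with a mean-variance trend. The minimum was 0.5 RPM in at least 6 libraries, which left 18222 genes. All 9 genes passed it. A gene was called at a Benjamini-Hochberg p, adjusted over all tested genes, under 0.05. Whether each numbered library is a separate animal is not stated in the labels, and p-values cover the spread among libraries, which may be technical. No 2 libraries were identical. The fit was checked on simulated data with independent genes and the same dispersion in every group. The 9 genes are correlated and their spread differs between groups, so the check does not give the power or error rate for them. Permutation tests used scipy 1.17.1 and Python 3.11.15, and figures matplotlib 3.10.9.

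The 9 genes, the pathway and marker lists and the tests were chosen with earlier results of these data known. Named were the 9 genes, up to 4 called genes of lowest p per pathway list, the 5 genes most like the mean of the 9, and the most alike gene of each. Of 221 listed genes, 220 were in the table. Alternatives were other pseudocounts, filters, normalizations and variance models, limma-voom on the whole reads, the compared groups alone, a spiny neuron covariate, the deposited RPKM and leaving out libraries. Leaving out the 8 libraries that stood apart in other cell types was chosen after seeing the data. No paired analysis was possible because no replicate number is shared between groups.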

Additional observations from a re-analysis of the deposited data

Results flagged for a closer look

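Gnal in wt crush library 203 was at 514.6 RPM, the lowest of the 6 wt crush libraries, and stood apart from them: the next was at 591.7 RPM, and the gap was 0.662 of the range of the group, above Dixon's critical value of 0.625 for 6 samples. Of the 36 groups of libraries examined (9 genes in 4 groups), this was the 1 that met the criterion. Chance flags about 1 in 20 groups. Gng7 in the same library was the highest of its group.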

How the results depend on the processing

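Under the 15 settings other than leaving out single libraries, 736 of 792 log2 changes of the 9 genes kept their direction and their side of the threshold, 54 changed sign and 2 newly passed the threshold. None of the 9 genes passed the test with the settings of the report, so the sign changes are those of values that passed no test. With array weights 2 of the 9 genes were called for wt crush against wt naive, Gnal (0.29, adjusted p = 0.044) and Ppp2r2a (0.40, adjusted p = 0.021). Leaving out 1 library at a time gave 0 to 1 called genes there: without wt naive library 196, Ppp2r2a was called (0.49, adjusted p = 0.0376). In the other 5 comparisons 0 of the 9 genes were called in every setting run. With quantile normalization, the log2 change was, for TG crush against TG naive, Ppp1r1b 0.066. With array weights, the log2 change was, for TG naive against wt naive, Pde10a -0.027, and, for TG crush against TG naive, Ppp1r1b 0.011, Gnal 0.040 and Pde10a 0.090. With the spiny neuron covariate, the log2 change was, for TG naive against wt naive, Ppp1r1b -0.030, Gnal -0.0086, Adcy5 -0.00092, Pde10a -0.074, Pde1b -0.049, Rasd2 -0.024 and Arpp21 -0.0089, and, for TG crush against wt crush, Ppp1r1b 0.0016, Gng7 0.014, Adcy5 0.0060, Rasd2 0.079 and Arpp21 0.0034, and, for TG against wt averaged, Gng7 0.025, Adcy5 0.0025 and Rasd2 0.027, and, for wt crush against wt naive, Ppp1r1b -0.056, Gng7 -0.053, Adcy5 -0.078, Pde10a -0.060 and Rasd2 -0.073, and, for the interaction, Ppp1r1b 0.032, Adcy5 0.0069, Pde10a 0.035, Pde1b 0.037, Rasd2 0.10, Arpp21 0.012 and Ppp2r2a 0.023. Without the 5 libraries over 20 RPM of Slc17a7, the log2 change was, for TG naive against wt naive, Ppp1r1b -0.031, Adcy5 -0.0057, Pde10a -0.068, Pde1b -0.045, Rasd2 -0.035 and Arpp21 -0.0091. Without the 8 libraries, the log2 change was, for TG naive against wt naive, Ppp1r1b -0.071, Gnal -0.082, Gng7 -0.048, Adcy5 -0.070, Pde10a -0.25, Pde1b -0.11, Rasd2 -0.098 and Arpp21 -0.023, and, for TG crush against TG naive, Gnal 0.050, Pde10a 0.069 and Arpp21 -0.016, and, for wt crush against wt naive, Gng7 -0.077, Adcy5 -0.029 and Rasd2 -0.030, and, for the interaction, Pde10a 0.041 and Rasd2 0.064. Leaving out 1 library at a time, values that changed sign ran, for TG naive against wt naive, Ppp2r2a -0.097 to 0.020; for TG against wt averaged, Gng7 -0.062 to 0.012; for TG crush against TG naive, Ppp1r1b -0.15 to 0.070, Gnal -0.10 to 0.077, Adcy5 -0.15 to 0.0063, Pde10a -0.16 to 0.13, Pde1b -0.053 to 0.14, Rasd2 -0.074 to 0.086, Arpp21 -0.074 to 0.095. Calls over all genes moved more. For TG crush against TG naive they were 562 (197 higher, 365 lower), 593 with TMM rescaling (330 higher, 263 lower), 123 in the compared groups alone, 1753 with array weights, 224 without TG crush library 220 and 1218 without TG crush library 223. For wt crush against wt naive they were 29 (7 higher, 22 lower), 29 with TMM rescaling (12 higher, 17 lower), 1436 with array weights, 5 without the 8 libraries, 12 without wt crush library 210 and 511 without wt naive library 196. For the genotype comparisons and the interaction they were 0 to 8 in every setting. The cause of these movements was not tested. Precision is limited by 6 to 8 libraries a group and by their spread, not by depth: the lowest value of any of the 9 genes was 100.1 RPM.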
